A study of Mus musculus with 9 samples.

Results

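A set of 10 genes of the immediate early response were followed in the livers of obese mice given an extract of Vigna umbellata, the rice bean. The set holds the transcription factor genes Fos, Jun, Junb, Atf3, Egr1 and Myc, the early response genes Ier2 and Ier3, the stress gene Gadd45b, and Phlda1, which encodes a pleckstrin homology-like domain protein. Members were found by gene symbol in the deposited signal sheet, with the brightest probe set to be taken where a symbol had several. The list was chosen by earlier results of these arrays, the signal differences between the groups among them, so those differences are a description here. Each of the 10 symbols had 1 probe set, so 10 of 21130 singly named genes, and 10 of 22206 probe sets, make up the set.

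All mice were male C57BL/6JHamSlc-ob/ob animals, which lack functional leptin, were 6 weeks old when obtained and ate standard chow. Vehicle, extract at 50 mg/kg (VE50) or extract at 100 mg/kg (VE100) was given by oral gavage for 42 days, and each of the 3 groups has 3 arrays of liver RNA (Affymetrix Clariom S). The labels number the arrays as replicates and do not say that each came from a separate animal, so p-values measure the spread between these arrays, which may be technical. The study's design text mentions non-obese wild-type mice, which were not analysed here.

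Immediate early genes are switched on within minutes of a stimulus without new protein synthesis, mainly by transcription factors that MAP kinases phosphorylate at the promoter. Most of their transcripts are short-lived, and FOS, JUN and ATF proteins pair with each other through leucine zippers to form the AP-1 family of DNA-binding dimers. In liver these genes are known for their response to partial hepatectomy, inflammation and fasting or feeding, and also to the handling of tissue. Whole liver RNA was measured, so fewer cells of a type and less RNA per cell cannot be told apart.

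Signal is given on a log2 scale after the authors' SST-RMA processing, in which a difference of 1 is a doubling. The hepatocyte markers Alb (albumin) and Ttr lay at the top of the scale, where the highest signal of any probe set was 19.93, so they cannot show differences in hepatocyte content. Apoa1, a marker below that level, ranged from 17.52 to 19.46. Vehicle 3 stood apart: it correlated across probe sets with the other arrays at 0.948 to 0.967, against 0.974 to 0.990 among the other 8, and its signal of the acute phase gene Saa2 was 18.75, against 7.84 to 11.81 elsewhere. Values without it therefore accompany the 10 genes' comparisons with vehicle. Over all probe sets, limma called none in any comparison after adjustment (0%), and the share past the study's own criterion, p below 0.05 before adjustment together with a linear fold over 1.1, was 6.12% for VE50 against vehicle, 9.48% for VE100 against vehicle and 2.91% for VE100 against VE50.

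Measured against negative control probe sets, most of these 10 genes had low signal. In the deposited value table, which also holds the negative control probe sets, 8 of the 10 lay below the 95th percentile of those controls on all 9 arrays. Jun exceeded it on 2 arrays and Myc on 1. Of all probe sets in the signal sheet, 14.3% (vehicle 3) to 20.2% (vehicle 1) exceeded it on a given array. In mean signal over 9 arrays, the members ranked from above 17.0% (Fos) to above 80.4% (Jun) of all probe sets. On all 9 arrays, 7 members exceeded the median of the negative controls, and Ier2 did on 8, Ier3 on 4 and Gadd45b on 1. Differences are therefore given in log2 signal and not as fold changes.

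Promoter sequences are shown for Fos, the type gene of the response, and for Jun and Junb, 2 members whose arrays separated between groups. Each runs from 250 bases before to 50 bases after the annotated start, 5′ to 3′, from RefSeq (GRCm38.p6), and capitals mark matches to any of 8 motifs searched on both strands. A promoter was matched for 6 of the 10 members, and none for Phlda1, Myc, Ier2 and Egr1.
Fos promoter, chr12:85473640-85473939, plus strand: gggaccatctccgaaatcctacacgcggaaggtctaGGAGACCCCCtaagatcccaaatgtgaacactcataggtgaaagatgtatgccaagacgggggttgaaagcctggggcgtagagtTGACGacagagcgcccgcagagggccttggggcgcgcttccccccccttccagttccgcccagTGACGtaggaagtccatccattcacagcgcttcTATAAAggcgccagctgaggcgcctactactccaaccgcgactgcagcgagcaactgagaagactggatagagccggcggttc
Jun promoter, chr4:95052173-95052472, minus strand: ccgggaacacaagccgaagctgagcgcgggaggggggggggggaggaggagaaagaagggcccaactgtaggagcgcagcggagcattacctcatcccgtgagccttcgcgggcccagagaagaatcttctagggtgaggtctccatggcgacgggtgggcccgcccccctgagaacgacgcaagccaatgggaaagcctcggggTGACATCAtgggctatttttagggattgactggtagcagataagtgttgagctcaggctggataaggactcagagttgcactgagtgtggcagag
Junb promoter, chr8:84978699-84978998, minus strand: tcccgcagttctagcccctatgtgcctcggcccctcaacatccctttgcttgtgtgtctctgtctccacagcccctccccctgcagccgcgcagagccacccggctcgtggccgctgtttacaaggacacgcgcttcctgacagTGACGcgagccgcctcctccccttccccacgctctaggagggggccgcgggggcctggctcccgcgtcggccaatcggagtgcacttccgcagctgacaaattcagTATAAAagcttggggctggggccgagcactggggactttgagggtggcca

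Fos held 2 CRE half-sites (TGACG), the binding element of CREB and ATF proteins, at -129 and -66 from the annotated start, and a TATA box (TATAAA) at -33. The marked stretch at -214 is a match to the NF-kB consensus on the opposite strand. Jun held a variant AP-1 site (TGACATCA) at -45, a sequence present in 3.62% of 32851 promoters of this length. Junb held a CRE half-site at -106 and a TATA box at the annotated start itself. A CRE half-site was found in 3 of the 6 member promoters (Atf3, Fos and Junb) and in 20.8% of all promoters, and a TATA box in 3 of 6 (Fos, Gadd45b and Junb) and in 13.6%. Gadd45b alone held an E-box (CACGTG; 7.15% of all promoters) and an EGR site (GCGNGGGCG; 5.55%). The NF-kB consensus was found in Fos and Ier3 (4.50% of all), and neither the AP-1 site (TGANTCA; 7.81%) nor the CArG box bound by serum response factor (1.63%) occurred in any of the 6 windows. The TGACG half-site overlaps no other match here, and these matches are letters in a window, not measured binding.

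**Figure D1:**
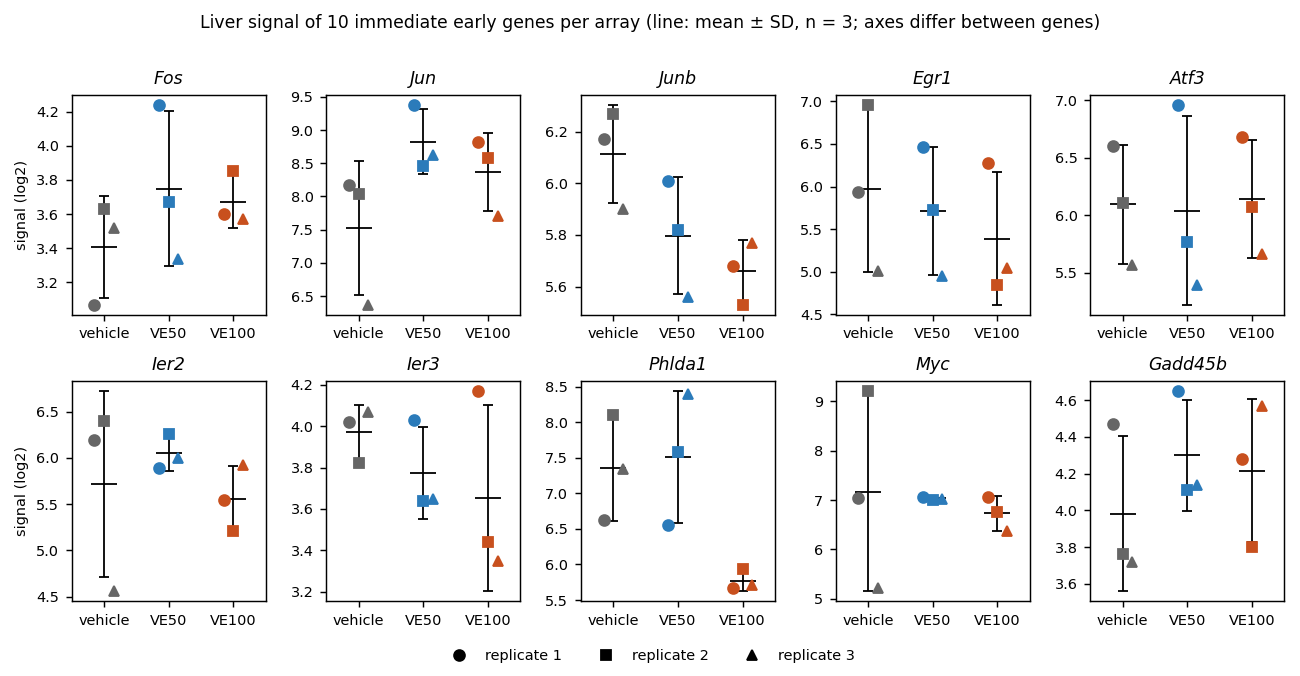
Signal (log2) of each of the 10 genes on each array, by dose; points are arrays, marked by replicate number, and lines give the mean ± SD of 3 arrays. Phlda1 lies between 5.67 and 5.94 on the VE100 arrays, below every other array, and Myc ranges from 5.21 to 9.21 among the vehicle arrays.

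Phlda1 had the largest difference in the set. The gene responds early to growth factor, T cell receptor and stress signals, and its protein has been tied to apoptosis and to restraint of AKT signalling. Its signal was 6.62, 8.10 and 7.34 on the vehicle arrays, 6.55, 7.58 and 8.40 on the VE50 arrays, and 5.67, 5.94 and 5.71 on the VE100 arrays. The 3 VE100 arrays lay below all 6 others, while VE50 and vehicle overlapped across nearly their whole range. The mean was 7.35 ± 0.74 in vehicle livers, 7.51 ± 0.93 in VE50 livers and 5.77 ± 0.15 in VE100 livers (SD, n = 3 each). VE100 thus differed from VE50 by -1.74 ± 0.46 (SE) and from vehicle by -1.58 ± 0.46. VE50 differed from vehicle by 0.16 ± 0.46 (95% interval -0.88 to 1.19), and by 0.15 without vehicle 3.

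Few probe sets differed by more: 0.0135% of probe sets had a larger absolute difference between VE100 and VE50, and 0.356% between VE100 and vehicle. As the set was chosen with such differences known, these shares are a description only. Leaving out single arrays moved the VE100 difference from VE50 between -2.22 (without VE50 1) and -1.29 (without VE50 3), and that from vehicle between -1.95 (without vehicle 1) and -1.21 (without vehicle 2). Without vehicle 3 it was -1.59. In the deposited value table the VE100 arrays read 5.83, 6.64 and 6.48 and again lay below all others, with the nearest at 6.92 (VE50 1). There Phlda1 lay below the 95th percentile of the negative controls on all 9 arrays, and at its lowest exceeded 55.4% of them. The authors' deposited table of filtered genes lists Phlda1, alone of the 10 members, with a signed fold score of -3.17, a p of 0.0118 and an FDR of 0.511. That filtered table compares VE100 with vehicle on the same arrays and holds 1815 probe sets, beside 22206 in the signal sheet.

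Other measures also varied between the groups of arrays. The linear signals of 12 macrophage markers were summed, so the brightest weigh most. The log2 of that sum ran from 10.95 to 11.63 in vehicle livers, from 10.47 to 11.80 in VE50 livers and from 9.46 to 10.54 in VE100 livers. In VE100 livers, of these markers, 12 of 12 had a mean below that in VE50 livers and 11 of 12 a mean below that in vehicle livers, with Cd5l of Kupffer cells at -1.61 ± 0.64 and -2.13 ± 0.64. None of the 12 exceeded the 95th percentile of the negative controls on all arrays. The direction was not particular to macrophages: of 10 sinusoidal endothelial markers, 9 had a VE100 mean below vehicle and 7 below VE50. Of 9 hepatocyte markers, 8 had a VE100 mean above vehicle and 6 above VE50, with median differences of 0.14 and 0.07. The 9 include Alb and Ttr, which lay at the top of the scale, so the direction of these genes is not informative. The mean of the hybridization controls ran from 10.73 to 11.01 in vehicle livers, 10.93 to 11.27 in VE50 livers and 11.15 to 11.44 in VE100 livers. Its VE100 range lay above the vehicle range and overlapped with the VE50 range. The part of these measures in the Phlda1 result was not tested.

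By the root-mean-square difference of centred log2 signal over the 9 arrays, the genes most like Phlda1 among 18707 compared were Olfr1015 (0.55), Tmem144 (0.63), Zscan22, Olfr1030 and Tbcel (0.65 each). Of these, 4 lay below the 95th percentile of the negative controls on all arrays, and Tbcel exceeded it on 4. Tmem144, as an example, read 6.31, 6.92 and 5.93 in vehicle, 5.70, 6.27 and 6.77 in VE50 and 5.73, 5.59 and 5.86 in VE100 livers, so its VE100 arrays lay below the vehicle arrays but overlapped with the VE50 arrays.

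Jun, which encodes the AP-1 subunit c-JUN, was the member with the largest difference at 50 mg/kg with all arrays in the fit; without vehicle 3, and with array weights, Myc differed by more. Its signal was 8.18, 8.04 and 6.37 on the vehicle arrays, 9.38, 8.46 and 8.63 on the VE50 arrays, and 8.82, 8.58 and 7.70 on the VE100 arrays. All VE50 arrays lay above all vehicle arrays, whereas VE100 overlapped with both other groups. The mean was 7.53 ± 1.01 in vehicle livers, 8.82 ± 0.49 in VE50 livers and 8.37 ± 0.59 in VE100 livers (SD, n = 3 each). The difference was 1.29 ± 0.49 (SE) for VE50 against vehicle and 0.84 ± 0.49 for VE100 against vehicle. Both were smaller without vehicle 3, at 0.71 and 0.26, and VE50 no longer passed the study's criterion. The VE50 difference was also not past the criterion without VE50 1 (1.02).

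Between the doses Jun differed by -0.46 ± 0.49, with overlapping arrays. In the deposited value table its VE100 arrays, at 9.32, 9.39 and 8.27, lay below the VE50 arrays, at 10.22, 9.39 and 9.41, with the nearest of them apart in the third decimal only, and the difference was -0.68.

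Junb encodes JUNB, a JUN relative that can dampen c-JUN activity in a dimer. Its signal was 6.17, 6.27 and 5.90 in vehicle livers, 6.01, 5.82 and 5.56 in VE50 livers, and 5.68, 5.53 and 5.77 in VE100 livers. The VE100 arrays lay below the vehicle arrays without overlap. The mean of 5.66 ± 0.12 (SD, n = 3) in VE100 livers differed from 6.11 ± 0.19 in vehicle livers by -0.45 ± 0.21 (SE; 95% interval -0.92 to 0.02), and VE50 differed from vehicle by -0.32 ± 0.21. Jun and Junb, which share the JUN family, thus had mean signals on opposite sides of vehicle at both doses. Junb did not pass the criterion here. For VE100 it did without vehicle 3 (-0.56), with array weights (-0.57) and without empirical Bayes (-0.45), and without vehicle 3 the VE50 difference was -0.42.

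Fos, whose protein pairs with JUN proteins, read 3.07, 3.63 and 3.52 in vehicle livers, 4.24, 3.67 and 3.34 in VE50 livers, and 3.60, 3.85 and 3.57 in VE100 livers. The highest value belonged to VE50 1, and all groups overlapped. The differences from vehicle were 0.34 ± 0.27 (SE) for VE50 and 0.27 ± 0.27 for VE100, and both turned negative in the deposited value table (-0.11 and -0.12). Single arrays moved them too: VE50 was 0.10 without VE50 1 and VE100 was 0.10 without vehicle 1, while without vehicle 3 they were 0.40 and 0.32. The genes with the closest profile to Fos over the 9 arrays were Fer1l4 (root-mean-square difference 0.13), Rftn2, Pik3r6, Hdgfrp3 and Olfr203 (0.15), none of which exceeded the 95th percentile of the negative controls on any array.

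Atf3 encodes a stress-induced bZIP protein that represses transcription as a homodimer. It read 6.60, 6.11 and 5.57 in vehicle livers, 6.96, 5.77 and 5.39 in VE50 livers, and 6.68, 6.07 and 5.66 in VE100 livers. The 3 groups spanned nearly the same range. The mean difference from vehicle was -0.05 ± 0.43 (SE) for VE50 and 0.04 ± 0.43 for VE100, with 95% intervals from -1.01 to 0.91 and from -0.92 to 1.002. Without vehicle 3 the differences were -0.32 and -0.22.

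Egr1 encodes a zinc finger factor induced by ERK signalling. It read 5.94, 6.96 and 5.01 in vehicle livers, 6.46, 5.73 and 4.95 in VE50 livers, and 6.28, 4.85 and 5.04 in VE100 livers. Each group held arrays above 6 and arrays near 5, and the groups overlapped. The difference from vehicle was -0.26 ± 0.55 (SE) for VE50 and -0.58 ± 0.55 for VE100. Without vehicle 3 they were -0.74 and -1.06, and without vehicle 2 they were 0.24 and -0.09. With array weights Egr1 passed the criterion for VE100 (-1.24).

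Myc, which encodes the growth-promoting factor c-MYC, varied more within the vehicle group than between doses. It read 7.05, 9.21 and 5.21 on the vehicle arrays, 7.07, 7.01 and 7.02 on the VE50 arrays, and 7.07, 6.75 and 6.37 on the VE100 arrays. Vehicle 2 was 2.14 above the next highest array and vehicle 3 was the lowest of all 9. The SD was 2.002 in vehicle livers, 0.032 in VE50 livers and 0.35 in VE100 livers (n = 3 each). The VE100 difference from vehicle, -0.43 ± 0.75 (SE), became 0.60 without vehicle 2 and -1.40 without vehicle 3, and the VE50 difference, -0.12 ± 0.75, became 0.90 and -1.10. Without vehicle 3, Myc passed the criterion at both doses.

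Ier2, a nuclear early response gene, read 6.19, 6.40 and 4.56 in vehicle livers, 5.89, 6.26 and 6.00 in VE50 livers, and 5.55, 5.21 and 5.92 in VE100 livers. Vehicle 3 was lowest here as well. With all arrays VE100 differed from vehicle by -0.16 ± 0.43 (SE), without vehicle 3 by -0.74, past the criterion, and without vehicle 2 by 0.19. For VE50 the sign turned, from 0.33 ± 0.43 with all arrays to -0.25 without vehicle 3. Between VE100 and VE50 the difference was -0.49 ± 0.43, and VE100 3 lay within the VE50 range.

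Ier3, an early gene that modulates cell survival, read 4.02, 3.82 and 4.07 in vehicle livers, 4.03, 3.64 and 3.65 in VE50 livers, and 4.17, 3.44 and 3.35 in VE100 livers. VE100 held both the highest and the lowest array. The VE100 difference from vehicle was -0.32 ± 0.26 (SE), and -0.58 without VE100 1, where it passed the criterion. The VE50 difference was -0.20 ± 0.26, and without vehicle 3 the 2 doses differed from vehicle by -0.15 (VE50) and -0.27 (VE100).

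Gadd45b, whose protein binds and regulates stress kinases of the p38 and JNK pathways, read 4.47, 3.76 and 3.72 in vehicle livers, 4.65, 4.11 and 4.14 in VE50 livers, and 4.28, 3.8 and 4.57 in VE100 livers. All groups overlapped. The difference from vehicle was 0.32 ± 0.29 (SE) for VE50 and 0.23 ± 0.29 for VE100. Leaving out single arrays moved the VE50 value between 0.14 (without VE50 1) and 0.56 (without vehicle 1), and the VE100 value between 0.057 (without VE100 3) and 0.48 (without vehicle 1). Without vehicle 3 they were 0.19 and 0.10.

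**Figure D2:**
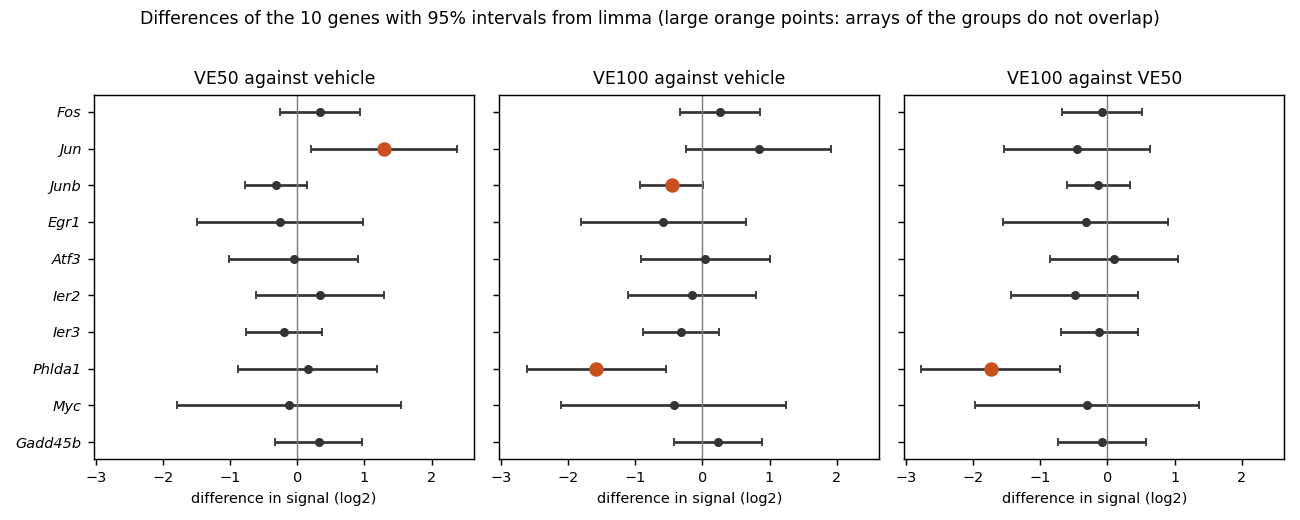
Difference in signal (log2) of each gene with its 95% interval from limma, in 3 comparisons; large orange points mark genes whose arrays do not overlap between the groups. Phlda1 lies at -1.58 for VE100 against vehicle and -1.74 for VE100 against VE50, and Jun at 1.29 for VE50 against vehicle.

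Counted over the set, 1 of 10 members passed the study's criterion in each comparison: Jun, higher, for VE50 against vehicle (6.12% of all probe sets passed, 3.31% higher and 2.8% lower), and Phlda1, lower, for VE100 against vehicle (9.48%, with 5.11% higher and 4.37% lower) and for VE100 against VE50 (2.91%, with 1.49% higher and 1.43% lower). With limma and adjustment over all 22206 probe sets, 0 of 10 passed in any comparison (0% of all probe sets), and the smallest adjusted p among the members was 0.795, 0.401 and 1, in that order of comparisons. The same 1 member per comparison had an unadjusted p under 0.05. Arrays did not overlap for 1 of 10 members in VE50 against vehicle (Jun, higher; 10.9% of all probe sets, 6.16% higher and 4.69% lower). They did not for 2 in VE100 against vehicle (Junb and Phlda1, lower; 13.6%, with 7.47% higher and 6.08% lower) and for 1 in VE100 against VE50 (Phlda1, lower; 10%, with 4.99% higher and 5.01% lower). The first 2 comparisons share the vehicle arrays.

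The median difference over the 10 members was 0.05 for VE50 against vehicle, with 5 of 10 above 0, beside -0.01 over all probe sets. It ran from -0.20 without vehicle 3 to 0.35 without vehicle 2, so its sign rests on single arrays. For VE100 against vehicle it was -0.24, with 6 of 10 below 0, beside -0.01 over all probe sets, and it turned to 0.09 without vehicle 2 and was -0.41 without vehicle 3. For VE100 against VE50 it was -0.22, with 9 of 10 below 0 and Atf3 at 0.10, beside 0.00 over all probe sets. That count and median rest on VE50 1: without it 5 of 10 were below 0 and the median was -0.011. Without vehicle 3, the members past the criterion were Myc for VE50, and Junb, Ier2, Phlda1 and Myc for VE100, while the share of all probe sets past it was 13.5% and 16.6%.

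Highest and lowest values of several members fell on the same arrays. VE50 1 was the highest array for 4 genes (Fos, Jun, Atf3 and Gadd45b) and lay above the 9-array mean for 9 of 10. Vehicle 2 was highest for 4 others (Junb, Egr1, Ier2 and Myc). Vehicle 3 was lowest for 4 (Jun, Ier2, Myc and Gadd45b), and VE100 2 and VE100 3 lay below the mean for 8 of 10 genes each. The median of the centred signals was 0.24, 0.22 and -0.48 on the vehicle arrays, 0.36, 0.04 and -0.09 on the VE50 arrays, and 0.11, -0.34 and -0.44 on the VE100 arrays. Vehicle 3 thus lay apart from the other vehicle arrays, and 2 of the 3 VE100 arrays lay low together.

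**Figure D3:**
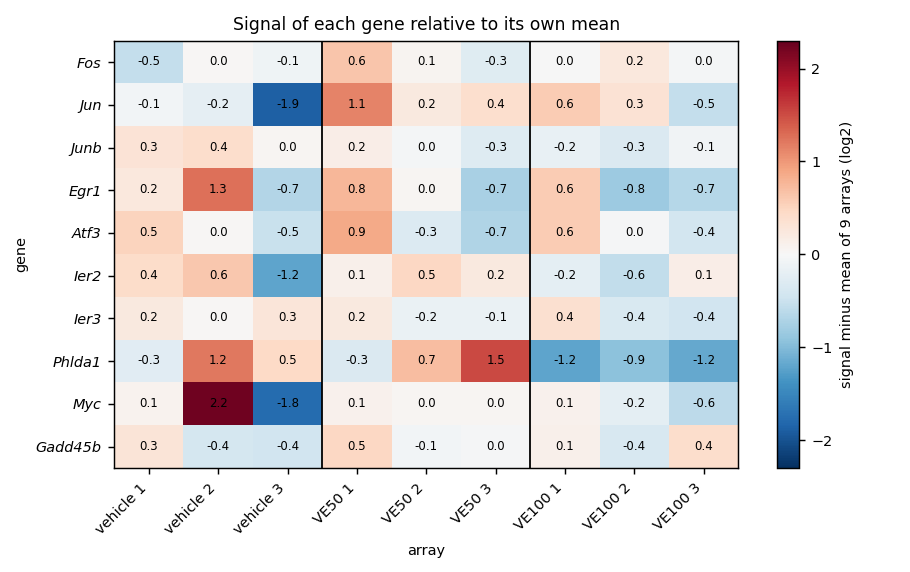
Signal of each gene (rows) on each array (columns) minus its own mean over 9 arrays (log2), red above and blue below, with black lines between doses. The row of Phlda1 is negative on all 3 VE100 arrays, the column of VE50 1 is above the mean for 9 of 10 genes, and the columns of VE100 2, VE100 3 and vehicle 3 are below it for 8, 8 and 7.

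Spread between arrays of a group was wide for most members. The pooled SD within groups exceeded the median of all probe sets (0.35) for 7 of 10. Myc had an SD of 1.17, larger than that of 98.8% of probe sets, followed by Egr1 (0.84, 96%), Jun (0.73, 93.8%), Phlda1 (0.69, 92.6%), Atf3 (0.63, 90%) and Ier2 (0.63, 89.6%). Junb was the exception at 0.19 (8.21%), and Fos (0.33), Ier3 (0.30) and Gadd45b (0.38) lay near the median. The vehicle group had the largest SD of the 3 groups for 5 members, VE50 for 4 and VE100 for 1.

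**Figure D4:**
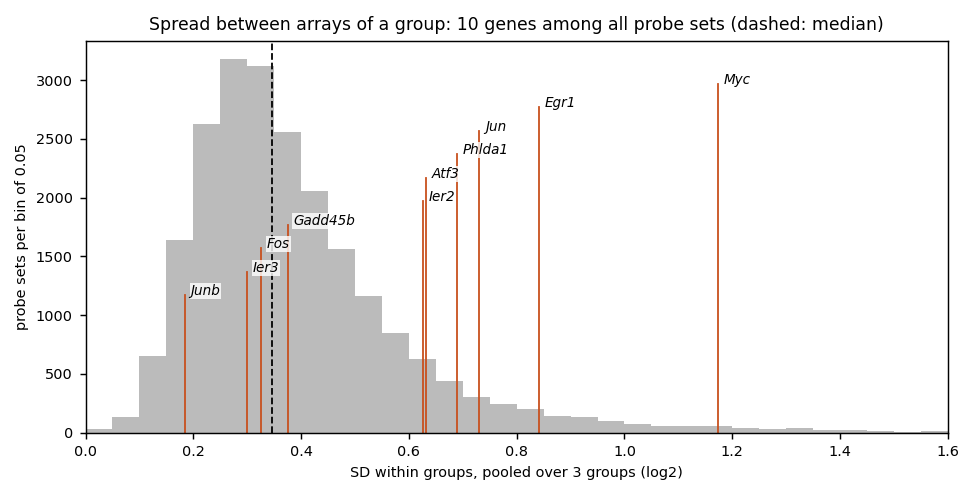
Histogram of the pooled within-group SD (log2) of all probe sets, with the 10 genes as orange lines and the median as a dashed line; the axis ends at 1.6. Myc lies at 1.17, 5 other genes lie between 0.63 and 0.84, and Junb lies at 0.19.

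Around these genes, 8 lists of relatives, upstream kinases, feedback inhibitors and target genes were examined, of which 150 of 153 genes were measured. For VE50 against vehicle, 13 genes lay higher past that criterion and 2 lay lower, 10% of the genes beside 6.12% of all probe sets. For VE100 against vehicle, 11 passed higher and 7 lower, 12% beside 9.48%, and for VE100 against VE50, 0 higher and 6 lower, 4% beside 2.91%. Over all probe sets, 3.31% passed higher and 2.8% lower for VE50 against vehicle. For VE100 the shares were 5.11% and 4.37% against vehicle, and 1.49% and 1.43% against VE50. These shares stand beside the counts of each list below. No gene passed the adjusted threshold in limma, the smallest adjusted p being 0.794, 0.305 and 1. Without vehicle 3 the split turned, to 9 higher and 16 lower for VE50 (16.7% beside 13.5%) and to 6 higher and 25 lower for VE100 (20.7% beside 16.6%).

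Of 13 AP-1 relatives, 1 passed the criterion at each dose. Atf4, the effector of the integrated stress response, lay higher for VE50 (0.56 ± 0.25, SE; 0.41 without vehicle 3, and no longer past the criterion in 7 of 9 fits without 1 array), and Jdp2, an AP-1 repressor, for VE100 (0.51 ± 0.22; no longer past it in 6 of 9, lowest at 0.43). None did between the doses, where Fosb differed by 0.30 ± 0.29 and Fosl1 by 0.02 ± 0.27. Of 14 EGR, NR4A and KLF relatives, none passed for VE50 (Egr2 -0.33 ± 0.27, Egr3 0.42 ± 0.25) or for VE100 against vehicle (-0.42 ± 0.27 and 0.29 ± 0.25). Between VE100 and VE50, Klf10, a TGF-beta-inducible gene, lay lower at -1.04 ± 0.40 (-0.68 without VE100 3, where it did not pass, as without VE50 1, VE50 2 or VE100 1).

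Among 33 other immediate early genes, 5 passed higher and 1 lower for VE50, and 3 higher for VE100. Cebpb, a liver transcription factor gene induced in the acute phase and in regeneration, had the smallest p at 100 mg/kg. It read 7.88, 8.60 and 8.70 in VE100 livers and 7.09, 7.07 and 6.15 in vehicle livers, without overlap, a difference of 1.62 ± 0.34 (SE) that stayed between 1.31 and 1.88 and past the criterion without any single array. At 50 mg/kg, Cebpb differed from vehicle by 1.05 ± 0.34 (0.82 without VE50 3, not past the criterion). Pim3, a serine/threonine kinase gene, read 8.26, 7.83 and 8.55 in VE100 livers and 7.15, 7.14 and 5.27 in vehicle livers. Its difference was 1.69 ± 0.48 for VE100, 1.07 without vehicle 3 and still past the criterion, and 1.41 ± 0.48 for VE50, 1.15 without VE50 3, where it was not. Cebpd, a relative of Cebpb, lay higher by 0.92 ± 0.32 in VE50 livers (0.71 without VE50 3, not past the criterion, as without VE50 1), and by 0.86 ± 0.32 in VE100 livers (0.74 without vehicle 3 and 0.68 without VE100 3, not past the criterion in these cases or without vehicle 2 or VE100 2). Between the doses, Sgk1, a kinase gene that responds to glucocorticoids and insulin, lay lower in VE100 at -0.84 ± 0.33 (-0.66 without VE50 2, not past the criterion, as without VE100 1 or VE100 3). For VE50, Cyr61, a matricellular protein gene, lay higher by 0.89 ± 0.32 (0.59 without vehicle 3, not past the criterion, as without VE50 1 or VE50 2), and Tiparp, a target of the aryl hydrocarbon receptor, by 0.85 ± 0.34 (0.46 without VE50 1, not past it, as without vehicle 1).

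Among relatives of GADD45, MYC and PHLDA, 2 of 14 genes passed higher for VE50 and 3 for VE100. Gadd45g, a paralogue of Gadd45b, read 4.99, 6.58 and 5.29 in vehicle livers, 6.60, 6.59 and 6.88 in VE50 livers, and 6.35, 6.41 and 7.57 in VE100 livers. The difference from vehicle was 1.16 ± 0.43 (SE) for VE100, not past the criterion without VE100 3 (0.76), vehicle 1 (0.84) or vehicle 3 (0.99), and 1.07 ± 0.43 for VE50, not past it without vehicle 1 (0.76), vehicle 3 (0.91) or any one VE50 array. Mnt, a MAX-binding antagonist of MYC, lay higher by 0.72 ± 0.30 for VE100 and 0.75 ± 0.30 for VE50, which became 0.37 and 0.40 without vehicle 3. It also missed the criterion without any one VE100 array at 100 mg/kg, and without VE50 1 or VE50 3 at 50 mg/kg. Mxd1, another such antagonist, lay higher by 0.55 ± 0.23 for VE100 (0.36 without VE100 2, and not past the criterion in 6 of 9 fits without 1 array). None passed between the doses, where Gadd45a differed by -0.06 ± 0.22 and Gadd45g by 0.09 ± 0.43.

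Upstream of the response, 29 kinases and factors were measured, of which 3 passed higher and 3 lower for VE100 against vehicle. Mapk14, which encodes the stress kinase p38 alpha, read 10.19, 10.33 and 10.21 in VE100 livers and 9.01, 9.48 and 8.62 in vehicle livers. That difference of 1.21 ± 0.28 (SE) stayed between 0.998 and 1.43 and past the criterion without any single array. Map2k6, an activator of p38, lay higher by 1.18 ± 0.34 in VE100 livers (0.82 to 1.51), and by 0.85 ± 0.34 in VE50 livers, where it was 0.50 without vehicle 3 and not past the criterion, as without vehicle 1, VE50 1 or VE50 3. Elk3, a factor that binds beside serum response factor, lay lower at -0.82 ± 0.32 in VE100 livers (-0.72 without VE100 2, not past the criterion, as without vehicle 1 or VE100 1). Mapk9, which encodes JNK2, lay lower at -0.65 ± 0.26 in VE100 livers and at -0.58 ± 0.26 in VE50 livers, and missed the criterion in 5 and in 7 of 9 fits without 1 array. Map3k5, which encodes the stress kinase ASK1, lay higher by 0.69 ± 0.29 in VE100 livers (0.39 without vehicle 3, not past it, as without VE50 1, VE100 2 or VE100 3). Mapk8, which encodes the JUN kinase JNK1, lay higher by 0.91 ± 0.29 in VE50 livers, between 0.67 and 1.08 without single arrays. Map2k1, an activator of ERK, lay lower in VE100 than in VE50, at -0.63 ± 0.26 (-0.47 without VE50 1, not past the criterion, as without VE100 1 or VE100 3).

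Feedback inhibitors of MAP kinase signalling had 2 of 15 genes past the criterion for VE100 against vehicle, both lower (4.37% of all probe sets). Dusp10, a phosphatase of p38 and JNK, read 6.13, 5.76 and 5.74 in VE100 livers, against 7.48, 7.53 and 6.60 in vehicle livers, a difference of -1.33 ± 0.33 (SE) that lay between -1.63 and -1.16 without single arrays. Against VE50, at 6.34, 7.42 and 6.76, it differed by -0.96 ± 0.33 (-0.67 without VE50 2, not past the criterion). Dusp6, a phosphatase of ERK, differed from vehicle by -1.21 ± 0.45 in VE100 livers, and by -0.67 without vehicle 2, where it did not pass, as without VE100 2 or VE100 3. For VE50 none passed. Dusp1, itself an immediate early phosphatase gene, differed from vehicle by 1.497 ± 0.75, and Dusp2 by -0.50 ± 0.34. Arrays did not overlap for 2 of the 15 genes higher, Dusp1 among them, and for 1 lower. Of all probe sets, 6.16% did not overlap higher and 4.69% lower. Values without single arrays were computed only for genes of the 8 lists past the criterion, so none is given for Dusp1.

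Of 14 growth factor receptors and ligands, Hbegf alone passed, for VE50 (0.66 ± 0.28, SE; 0.53 without vehicle 3, and not past the criterion in 6 of 9 fits without 1 array). For VE100 none did, with the EGF receptor gene Egfr at 0.62 ± 0.80 and Erbb3 at 0.48 ± 0.26 against vehicle, nor did any between VE100 and VE50 (0.31 ± 0.80 and 0.43 ± 0.26). Of 18 MYC target genes, 2 passed higher for VE50, and 1 higher and 2 lower for VE100. Nop58, a box C/D snoRNP protein gene, differed by 0.84 ± 0.21 for VE50 (0.69 to 0.94 without single arrays) and Bop1, a ribosome biogenesis gene, by -0.87 ± 0.24 for VE100 (-1.03 to -0.73). Ncl, which encodes nucleolin, lay higher by 0.75 ± 0.33 at both doses, at 0.48 without vehicle 1 and 1.16 without vehicle 3, the one array of 9 whose omission kept it past the criterion. Polr1b, an RNA polymerase I subunit gene, lay lower at -0.61 ± 0.25 for VE100 (-0.43 without VE100 2, not past the criterion, as without vehicle 1). Between VE100 and VE50, Nop58 (-0.50 ± 0.21) and Bop1 (-0.57 ± 0.24) lay lower, each missing it in 5 of 9.

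The acute phase list, which marks inflammation of the liver, had its highest Saa1 and Saa2 signals on vehicle 3. Of its 23 genes, 22 had a mean below vehicle at 50 mg/kg and 18 at 100 mg/kg, with medians of -0.37 and -0.53. With all arrays, 2 and 3 of them passed the criterion, all lower, beside 2.8% and 4.37% of all probe sets. Without vehicle 3, 12 and 15 had a mean below vehicle and the medians were -0.05 and -0.10. With vehicle 3 included, Saa4 differed from vehicle by -1.51 ± 0.45 (SE) for VE50 and -1.59 ± 0.45 for VE100. Lbp, which encodes the lipopolysaccharide-binding protein, differed by -1.24 ± 0.36 and -1.13 ± 0.36. Values of Saa4 and Lbp without that array are not given here. Saa2 differed by -4.15 ± 1.73 for VE100, with the VE100 arrays at 11.41, 9.46 and 7.84 and vehicle 1 and vehicle 2 at 10.61 and 11.81. Between VE100 and VE50 the median was -0.08 and none passed, with Saa1 at -1.20 ± 1.71 and Saa2 at -1.47 ± 1.73. The part of this difference in the comparisons with vehicle was not tested.

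**Figure D5:**
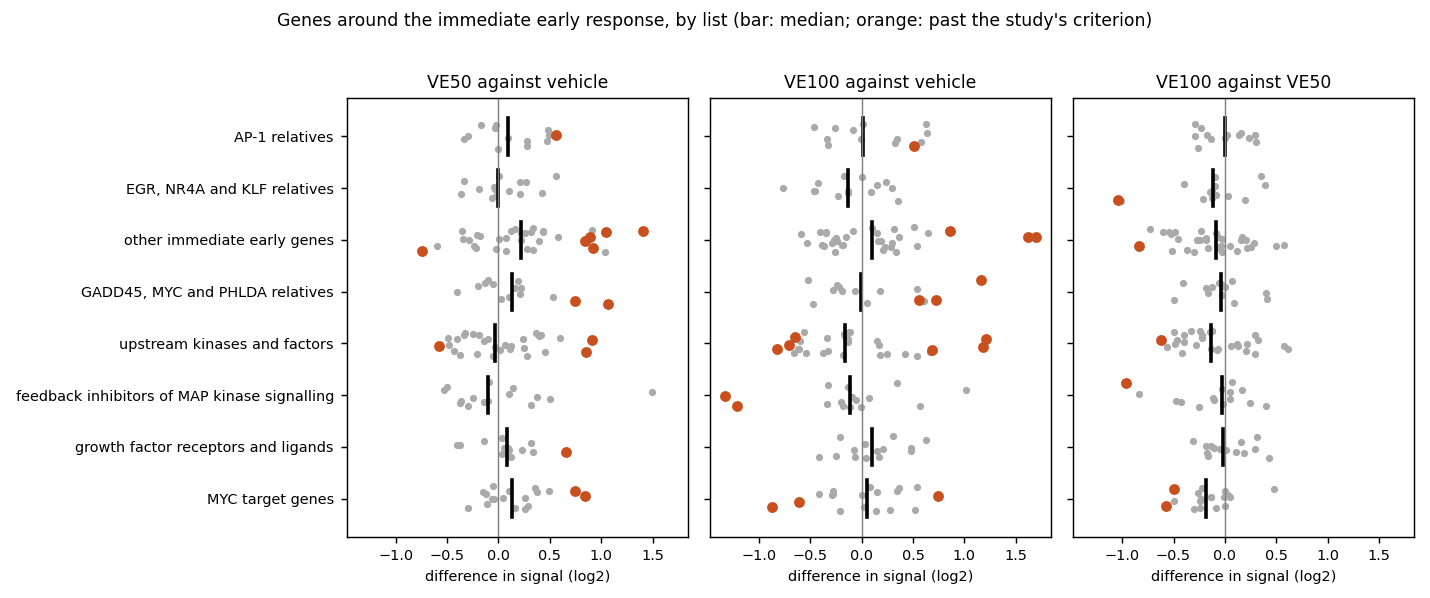
Difference in signal (log2) of each measured gene of 8 lists, in 3 comparisons; black bars are list medians and orange points are genes past the study's criterion. List medians lie between -0.18 and 0.22, and Cebpb, Pim3 and Dusp10 are among the points farthest from 0 for VE100 against vehicle.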

How the data were processed

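Liver RNA of ob/ob mice was hybridised to 9 Clariom S arrays. The authors deposited log2 signal per probe set, scaled by SST-RMA (signal space transformation, then RMA) in Transcriptome Analysis Console 4.0.2 according to the design text. A second deposited table holds log2 values of these arrays, control probe sets included, for which RMA and Transcriptome Analysis Console 4 are listed in the submitters' processing notes. The authors' deposited filtered table gives a signed fold score with a p-value and an FDR. No genome build is given for the arrays in the sources used here, and the promoter sequences are from GRCm38.p6.

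All 22206 probe sets were fitted with limma 3.58.1 (lmFit, eBayes; R 4.3.3), a mean per group over 9 arrays and contrasts between groups. Two-sided p-values were adjusted by Benjamini-Hochberg across the whole table (threshold 0.05), and the study's criterion was p below 0.05 before adjustment together with a linear fold over 1.1. The fits were tested on simulated data. No batch is given in the labels.

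The members and lists were chosen with earlier results of these data known, and motifs after the promoters were seen. All members are named; from each list, up to 5 genes past the criterion with the smallest p, or the first 2 of the list where none passed. Alternatives were 2 scalings, a signal filter, the deposited value table, the replicate number as a block, array weights, other variance models, only the groups compared, and leaving out each array. The labels do not say whether replicate numbers pair the arrays. Same-numbered deviations correlated over 0.1 in 3 of 9 pairs, which cannot settle it with 3 arrays per group. Precision is limited by the number of arrays.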

Additional observations from a re-analysis of the deposited data

How the results depend on the processing

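Over 18 alternatives, 534 values of single members were recomputed: 487 kept their direction and side of the study's criterion, 3 lost it (all Jun for VE50 against vehicle), 11 gained it and 33 turned sign. Phlda1 stayed lower in VE100 and past the criterion under all 18, against vehicle (-1.95 to -1.21) and against VE50 (-2.22 to -1.29). The set was chosen with differences on these arrays known, so these refits describe the values and are no separate support. Each member had 1 probe set, so averaging probe sets gave the same values. The cause of the changes below was not tested, apart from the arrays left out.

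The count of members past the criterion, 1 in each comparison, became 0 for VE50 without empirical Bayes, and for VE100 against vehicle 2 with the replicate block (Jun added, 0.84), 2 without empirical Bayes (Junb added) and 5 with array weights (Junb, Egr1, Ier2, Phlda1 and Myc). Without single arrays it ran from 0 to 1 for VE50 and from 1 to 4 for VE100, highest without vehicle 3. Without single arrays the members' median ran from -0.20 to 0.35 for VE50 against vehicle, from -0.41 to 0.087 for VE100 against vehicle and from -0.43 to -0.011 between the doses. For VE50 it was -0.15 with array weights. Of all probe sets, 2902 passed the criterion for VE50, 3743 for VE100 and 1267 between the doses with array weights, and 1119 between the doses with only these groups fitted. After adjustment 1 passed for VE100 in the deposited value table, 1 without empirical Bayes and 125 with array weights. Without single arrays, 0 to 10 passed after adjustment for VE50 and 0 to 434 for VE100, and 987 to 2991, 1619 to 3688 and 413 to 1247 passed the criterion for VE50, VE100 and between the doses. Of the 8 lists' genes, 25 passed for VE50, 31 for VE100 and 10 between the doses without vehicle 3, a step added after the data were seen.

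Sign turned for VE50 against vehicle in Atf3 (0.011 with quantile normalization; -0.51 to 0.27 without single arrays), Fos (-0.11), Egr1 (0.37) and Myc (0.001) in the deposited value table, Ier2 (-0.16) and Phlda1 (-0.011) with array weights, and without single arrays in Phlda1 (-0.29 to 0.64), Egr1 (-0.74 to 0.24), Myc (-1.10 to 0.90) and Ier2 (-0.25 to 0.68). For VE100 against vehicle it turned in Fos (-0.12) and Gadd45b (-0.034) in the deposited value table, Atf3 (-0.15) with array weights, and without single arrays in Ier2 (-0.74 to 0.19), Myc (-1.40 to 0.60) and Atf3 (-0.23 to 0.30). Between the doses, single arrays turned Fos (-0.28 to 0.17), Egr1 (-0.77 to 0.05), Ier3 (-0.38 to 0.032), Gadd45b (-0.26 to 0.13) and Atf3 (-0.23 to 0.56).

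The replicate numbers are not stated to pair the arrays, and 3 of 9 arrays correlated best with their own number. Low signal limits the members, 8 of which stayed below the 95th percentile of the negative controls on every array. Of all probe sets, 14.3% (vehicle 3) to 20.2% (vehicle 1) exceeded that percentile on a given array.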
